A study of Mus musculus with 9 samples.

Results

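Haemoglobin and erythroid genes were followed in the heart transcriptome of mice with streptozotocin diabetes. The genes were taken by symbol and not by any measured value: the alpha globins Hba-a1 and Hba-a2, the beta globins Hbb-bs and Hbb-bt, Alas2, the enzyme that starts heme synthesis in red cell precursors, and Slc4a1, the band 3 anion exchanger of the red cell membrane. Of these 6 genes, 5 have a row among the 22851 genes of the count table, and Alas2 was not analysed here. All 9 libraries came from male C57BL/6 mice (C57BL/6J in the methods), which were supplied at 6 to 8 weeks of age, before the treatments. The 3 CK mice received citrate buffer, the 3 DCM (diabetic cardiomyopathy) mice a single dose of streptozotocin at 180 mg/kg with collection 12 weeks later, and the 3 SPM mice the same streptozotocin plus spermine at 1 mg/kg, daily for the 2 weeks before it and every other day for the 12 weeks after it. Streptozotocin is toxic to pancreatic beta cells and is a model of insulin lack, and spermine is a polyamine. The methods give 3 mice per group in one place and pools of 6 hearts in another, so p-values measure the spread between these libraries, which may be that of mice or of pools.

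Adult haemoglobin is a tetramer of a pair of alpha and a pair of beta chains, each holding a heme. The chains are made in erythroid precursors of the bone marrow and, for a short time, in reticulocytes that have left it. Mature red cells have no nucleus, and globin RNA in a heart library is usually taken to come from reticulocytes and young red cells in the blood left in the tissue. Slc4a1 is made late in the same lineage. In such bulk tissue, fewer erythroid cells and less globin RNA per cell cannot be told apart.

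In GRCm38, with GENCODE M21, the alpha genes lie on the plus strand of chromosome 11, Hba-a1 (ENSMUSG00000069919) at chr11:32283511-32284465 and Hba-a2 (ENSMUSG00000069917) at chr11:32296489-32297298. The beta genes lie on the minus strand of chromosome 7, Hbb-bs (ENSMUSG00000052305) at chr7:103826534-103828096 and Hbb-bt (ENSMUSG00000073940) at chr7:103812524-103813996. Slc4a1 (ENSMUSG00000006574) is at chr11:102348824-102366203 on the minus strand. Each pair is nearly identical in its coding part, as the stretches around the differing base show. Positions are counted from 1 at the A of the start codon, and the capital marks the base that differs. The alpha stretches run from base 351 to 410 and the beta stretches from base 387 to 444.
Hba-a1: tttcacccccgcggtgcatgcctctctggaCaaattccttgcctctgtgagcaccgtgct
Hba-a2: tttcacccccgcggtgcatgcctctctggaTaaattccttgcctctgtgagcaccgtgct
Hbb-bs: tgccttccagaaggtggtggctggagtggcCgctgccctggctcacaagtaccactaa
Hbb-bt: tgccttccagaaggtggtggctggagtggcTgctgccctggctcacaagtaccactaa

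The coding parts of Hba-a1 and Hba-a2 (429 bases) differ by C381T alone, and those of Hbb-bs and Hbb-bt (444 bases) by C417T alone. Of the 50-base windows of the transcript, those not found in the partner made up 32.5% for Hba-a1, 13.1% for Hba-a2, 34.2% for Hbb-bs and 41.7% for Hbb-bt. The share of Hba-a1 depends on where its transcript is annotated to begin. Its GENCODE transcript (699 bases, against 554 for Hba-a2) starts well before the RefSeq start site. Hba-a2 has nearly the same bases there, but outside its transcript, so the share overstates how far the copies differ. The sources used here do not give how reads that match both copies were counted. The split of counts within a pair is therefore uncertain, whereas the sum over a pair is less so.

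The promoters are shown because the 4 globin genes moved together over the libraries. The windows are the 150 bases before the RefSeq start site (GRCm38.p6). Capitals mark 3 of the motifs searched, the CCAAT box, the CACCC box and the TATA-like ATATAA. Hba-a1 has nearly the same window as Hba-a2, with a run of 247 identical bases in the 250 before the start. The windows of Hbb-bs and Hbb-bt share no identical run longer than 14 bases in the same register. The Hba-a2 window is chr11:32296342-32296491, plus strand, and that of Hbb-bs is chr7:103827929-103828078, minus strand. RefSeq starts differ from the GENCODE gene bounds given above. The Hbb-bs window lies inside the GENCODE gene, and the Hba-a2 window ends just past the GENCODE start.
Hba-a2: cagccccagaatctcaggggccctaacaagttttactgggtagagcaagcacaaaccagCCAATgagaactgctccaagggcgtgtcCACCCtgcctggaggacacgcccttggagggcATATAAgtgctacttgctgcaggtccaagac
Hbb-bs: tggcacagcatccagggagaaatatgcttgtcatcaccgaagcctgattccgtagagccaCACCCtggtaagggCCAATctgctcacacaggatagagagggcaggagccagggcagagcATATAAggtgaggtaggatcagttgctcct

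All 4 globin windows of 250 bases, searched on both strands, held the same 3 motifs and also GATAA, the letters that GATA factors bind. Over 32851 RefSeq promoter windows of that length, CCAAT was found in 33.8%, CACCC in 52.0%, GATAA in 22.6%, ATATAA in 9.1% and all 4 in 0.466%. In Hba-a2 the CCAAT began 91 bases and the ATATAA 31 bases before the start, and in Hbb-bs they began 76 and 30 bases before it. These are matches of letters, and binding was not measured.

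Total counts lay between 29901300 and 39718680 per library. The tissue labels name the heart and myocardium, while the extraction protocol of all 9 libraries speaks of retinas. The 6 cardiomyocyte markers with a row (led by Myh6, Myl2 and Tnnt2) summed to 32290 to 44550 normalized CPM (counts scaled by library size after TMM normalization), and the 6 retina markers with a row (among them Sag and Gnat1) to 0.576 to 1.56 CPM. One library stood apart in its relation to others. The counts of SPM replicate 2 were matched by a mixture of 44% SPM replicate 1 with SPM replicate 3, and over 12258 genes the median of the squared deviations was 0.880 of what counting alone gives, against 2.54 for the next of 252 combinations. Among the globins, Hbb-bt deviated most from that mixture (2884 counts against 2227, 11.3 counting SD), followed by Hbb-bs (15239 against 16448, -7.64 counting SD). Of the 12258 genes, 8 deviated at least as much as Hbb-bt and 15 at least as much as Hbb-bs, these genes included. Hba-a1, Hba-a2 and Slc4a1 lay within 1.08 counting SD of the mixture. The calls that use SPM are therefore given also without SPM replicate 2.

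The globins were among the abundant transcripts of the heart libraries. By FPKM, a level per transcript length, the mean over the 9 libraries was 1500 for Hbb-bs, 1186 for Hba-a1, 211 for Hbb-bt, 63.5 for Hba-a2 and 0.254 for Slc4a1. The order of Hbb-bs and Hba-a1 depends on the annotated length of Hba-a1, described above. Hbb-bs ranked between 17 and 88 and Hba-a1 between 18 and 124 of 22851 genes, according to the library. Slc4a1 ranked between 12595 and 15066, and its counts were only 17 to 80 per library. The 4 globins together took 0.380%, 0.288% and 0.159% of all counts in the CK replicates 1 to 3, 0.329%, 0.129% and 0.173% in those of DCM, and 0.0737%, 0.101% and 0.126% in those of SPM. Every SPM library was below every CK and DCM library in this share, and CK and DCM overlapped. The nearest libraries were SPM replicate 3 (Wilson 95% interval 0.125% to 0.128%, for counting error only) and DCM replicate 2 (0.127% to 0.130%). Their intervals overlapped only at the ends.

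Hba-a1, the alpha gene with most of the counts, was at 1516, 1113 and 610 normalized CPM in CK replicates 1 to 3, at 1468, 577 and 798 in DCM, and at 316, 438 and 541 in SPM. Its group means were 1080 ± 454 in CK, 947 ± 464 in DCM and 432 ± 113 in SPM (SD, n = 3). CK and DCM shared nearly the same range, and all SPM libraries lay under it.

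Hba-a2, the other adult alpha gene, was at 61.7, 57.0 and 29.9 CPM in CK, at 72.2, 21.5 and 28.0 in DCM, and at 8.86, 14.97 and 18.19 in SPM. DCM replicate 1 was the highest of the 9 libraries, 3.36 times the lowest DCM library. The SPM libraries were again the lowest of all, and over the 9 libraries the gene spanned 8.14-fold, the widest span of the 5 genes.

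Hbb-bs, the beta gene with most of the counts, was at 1686, 1389 and 802 CPM in CK, at 1544, 655 and 784 in DCM, and at 374, 490 and 651 in SPM. The highest SPM library (650.6) was just below the lowest DCM library (654.8), and well below the lowest CK library.

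Hbb-bt, the second adult beta gene, was at 354, 175 and 102 CPM in CK, at 212, 78.0 and 167 in DCM, and at 54.5, 92.6 and 85.0 in SPM. Here DCM replicate 2 fell inside the SPM range, so DCM and SPM overlapped, while CK and SPM did not.

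Slc4a1 was at 2.04, 2.23 and 0.812 CPM in CK, at 1.79, 0.678 and 0.822 in DCM, and at 0.642, 0.675 and 0.553 in SPM. Its lowest DCM library and highest SPM library had 20 and 21 counts, so their order rests on library size. In all 5 genes CK replicates 1 and 2 and DCM replicate 1 were the 3 highest libraries, and CK replicate 3 was the lowest of its group.

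**Figure D1:**
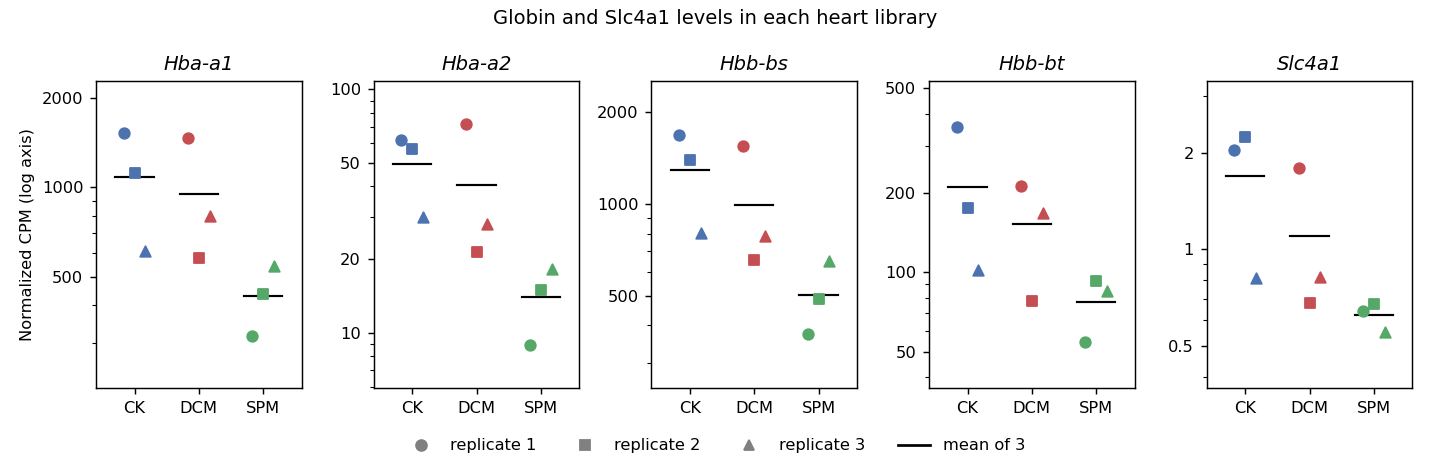
Normalized CPM (log axis) of the 4 globin genes and Slc4a1 in each library by group, with the marker shape giving the replicate and a bar the mean of 3. The SPM libraries are lowest for every gene except Hbb-bt, where DCM replicate 2 (78.0 CPM) falls among them, and CK and DCM overlap in all 5.

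DCM compared to CK sets streptozotocin against buffer, so effects of diabetes and of the drug itself cannot be told apart. None of the 5 genes was called, where a call is an adjusted p below 0.05 with a fold change of at least 1.5 by the quasi-likelihood test of edgeR, against 4.34% of 14402 genes tested (2.03% higher and 2.31% lower). The fitted log2 fold changes were -0.19 for Hba-a1 (SE 0.32, 95% interval -0.88 to 0.50, adjusted p = 0.776), -0.28 for Hba-a2 (SE 0.36, -1.07 to 0.51, adjusted p = 0.696) and -0.38 for Hbb-bs (SE 0.29, -1.01 to 0.25, adjusted p = 0.468). Hbb-bt had -0.47 (SE 0.38, -1.30 to 0.37, adjusted p = 0.505) and Slc4a1 -0.62 (SE 0.46, -1.62 to 0.38, adjusted p = 0.456). The intervals hold no change and also decreases of over 1.5-fold, so neither can be set aside from these libraries. The libraries of CK and DCM overlapped for each of the 5 genes, whereas over all genes 14.7% did not overlap with DCM higher and 14.6% with DCM lower. Without DCM replicate 1, Hba-a2 (-0.99, adjusted p = 0.0322) and Hbb-bs (-0.84, adjusted p = 0.0497) were called lower, so 2 of 5 were called. The sign turned for Hba-a1 without CK replicate 1 (0.14) or DCM replicate 2 (0.07), for Hba-a2 without DCM replicate 2 (0.01) and for Hbb-bt without CK replicate 1 (0.14).

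SPM compared to DCM asks what spermine, begun 2 weeks before streptozotocin, added to streptozotocin. Whether diabetes was equally severe in both groups was not tested here. All 4 globins fell: Hba-a1 by 2.18-fold, Hba-a2 by 2.90-fold, Hbb-bs by 1.96-fold and Hbb-bt by 1.96-fold, so 4 of the 5 genes were called, all lower, against 3.59% of 14493 genes tested (2.70% higher and 0.890% lower). The log2 fold change of Hba-a1 was -1.13 (SE 0.29, 95% interval -1.77 to -0.48, adjusted p = 0.0297) and that of Hba-a2 was -1.54 (SE 0.40, -2.42 to -0.65, adjusted p = 0.0306). Hbb-bs had -0.97 (SE 0.29, -1.60 to -0.34, adjusted p = 0.0432) and Hbb-bt -0.97 (SE 0.30, -1.63 to -0.31, adjusted p = 0.0491). Slc4a1 was not called (-0.82, SE 0.42, -1.75 to 0.11, adjusted p = 0.192). The libraries of SPM and DCM did not overlap for 4 of the 5 genes, Hbb-bt being the exception, and over all genes 19.1% did not overlap with SPM higher and 20.4% with SPM lower.

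The calls of SPM compared to DCM lay close to the threshold and were lost in many of the other fits. Without SPM replicate 2, none of the 5 genes was called (Hba-a1 -1.14, adjusted p = 0.0811), and over all genes the calls went from 521 to 56 (0.378%). Omitting DCM replicate 1 left 0 calls (1.88% of all genes called), DCM replicate 3 left 0 (3.18%), DCM replicate 2 left 1 (0.487%), SPM replicate 1 left 2 (3.08%) and SPM replicate 3 left all 4 (5.29%). Without DCM replicate 2, the lowest DCM library, the log2 fold changes were larger in size (Hba-a1 -1.38, Hba-a2 -1.84). Leaving out DCM replicate 1, the highest DCM library, brought the log2 fold change to -0.67 for Hba-a1, -0.83 for Hba-a2, -0.51 for Hbb-bs, -0.67 for Hbb-bt and -0.27 for Slc4a1. DESeq2 called none of the 5 on the same libraries (3.98% of all genes), with adjusted p of 0.0616 for Hba-a1 and 0.0528 for Hba-a2. Across 14484 genes, which are not replicates, the fold change in this comparison was related to GC content (Spearman rho = -0.502), and the globins have 50.8% to 57.2% GC against a median of 49.8%. With an offset for that trend the calls over all genes went from 521 to 126 (0.869%) and none of the 5 was called (Hba-a1 -0.94, adjusted p = 0.102, and Hba-a2 -1.36, adjusted p = 0.0928). Mitochondrial genes took 21.0% to 21.1% of counts in SPM against 15.5% to 18.9% in DCM, and their part in the globin result was not tested apart from leaving those genes out, which kept 3 of the 4 calls.

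SPM compared to CK, which sets mice given both agents against mice given buffer, held the largest decreases. All 5 genes fell: Hba-a2 by 3.55-fold, Hbb-bt and Slc4a1 by 2.72-fold, Hbb-bs by 2.56-fold and Hba-a1 by 2.50-fold. Thus 5 of 5 were called, all lower, against 9.21% of 14574 genes tested (5.08% higher and 4.12% lower). The log2 fold changes were -1.32 for Hba-a1 (SE 0.30, 95% interval -2.01 to -0.64, adjusted p = 0.0138), -1.83 for Hba-a2 (SE 0.31, -2.52 to -1.13, adjusted p = 0.00422) and -1.36 for Hbb-bs (SE 0.27, -1.97 to -0.75, adjusted p = 0.00813). Hbb-bt had -1.44 (SE 0.39, -2.34 to -0.55, adjusted p = 0.0274) and Slc4a1 -1.44 (SE 0.42, -2.39 to -0.50, adjusted p = 0.0333). The groups did not overlap for any of the 5 genes, and over all genes 22.7% did not overlap with SPM higher and 23.4% with SPM lower. The fold change was related to GC content in this comparison too (Spearman rho = -0.366 across 14564 genes, which are not replicates). Mitochondrial genes took 13.72% to 16.15% of counts in CK against 21.0% to 21.1% in SPM. Their part in the globin result was not tested apart from leaving those genes out, which kept all 5 calls. Hba-a1, Hba-a2 and Hbb-bs were called under each of 18 alternatives, GC offset and DESeq2 included. Hbb-bt and Slc4a1 lost their calls without CK replicate 1 (Hbb-bt -0.85, Slc4a1 -1.30), CK replicate 2, SPM replicate 1 or SPM replicate 2, which left 3 of 5, and Slc4a1 also without SPM replicate 3. Slc4a1 was not called either with the GC offset (-1.30, adjusted p = 0.0523) or by limma on log2(FPKM + 1) (adjusted p = 0.0598). This comparison shares its CK libraries with DCM compared to CK and its SPM libraries with SPM compared to DCM. The median log2 fold change of the 5 genes was -0.38, -0.97 and -1.44 in the 3 comparisons in the order given, and that of all genes was within 0.0057 of 0 in each.

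**Figure D2:**
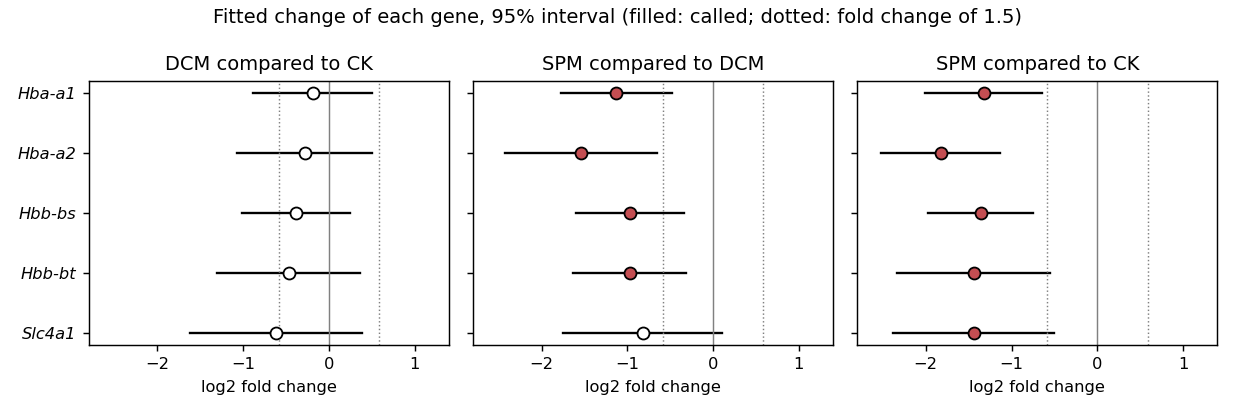
Fitted log2 fold change of each gene with its 95% interval in the 3 comparisons (filled points are called, dotted lines mark a fold change of 1.5). None of the 5 intervals of DCM compared to CK leaves out 0, while those of SPM compared to CK lie wholly below 0.

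**Figure D3:**
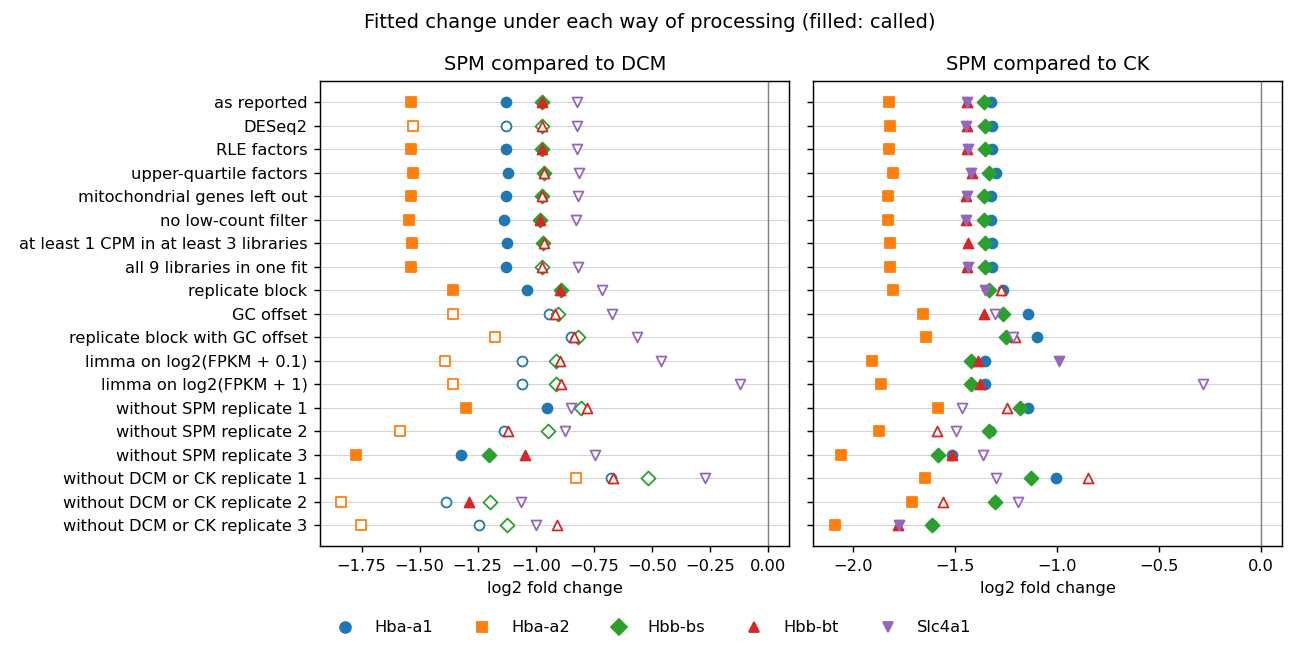
Log2 fold change of the 5 genes (horizontal axis) under each way of processing and with each library left out (vertical axis), filled where called. In SPM compared to DCM the points stay below 0 while many open up, and in SPM compared to CK Hba-a1, Hba-a2 and Hbb-bs are filled throughout.

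The balance between the genes within a library differed less than their levels. Hba-a2 took 3.91%, 4.87% and 4.67% of the alpha counts in CK, 4.69%, 3.59% and 3.39% in DCM, and 2.73%, 3.30% and 3.25% in SPM. All SPM libraries were below the others, although the highest SPM value (Wilson 95% interval 3.02% to 3.61%) and the lowest DCM value (3.19% to 3.61%) overlap in counting error. Hbb-bt took 17.4%, 11.2% and 11.3% of the beta counts in CK, 12.1%, 10.6% and 17.6% in DCM, and 12.7%, 15.9% and 11.6% in SPM. The group means of that share were 13.3%, 13.4% and 13.4%, so the high libraries, CK replicate 1, DCM replicate 3 and SPM replicate 2, came one from each group.

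Summed over each pair and per length, alpha over beta globin was 0.715, 0.689 and 0.652 in CK, 0.808, 0.749 and 0.802 in DCM, and 0.696, 0.718 and 0.697 in SPM. The level of this ratio depends on the annotated length of Hba-a1 (699 bases), which starts well before the RefSeq start site. The DCM libraries were above all others in this FPKM ratio. Slc4a1 had between 0.0526% and 0.0817% of the number of globin counts in the CK libraries, between 0.0462% and 0.0544% in the DCM libraries and between 0.0427% and 0.0852% in the SPM libraries, and thus overlapped between the groups. Without SPM replicate 2 the SPM values run from 2.73% to 3.25% for Hba-a2, from 11.6% to 12.7% for Hbb-bt and from 0.696 to 0.697 for alpha over beta. No p is given for these ratios, for which 3 libraries against 3 allow an exact permutation p no smaller than 0.1.

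**Figure D4:**
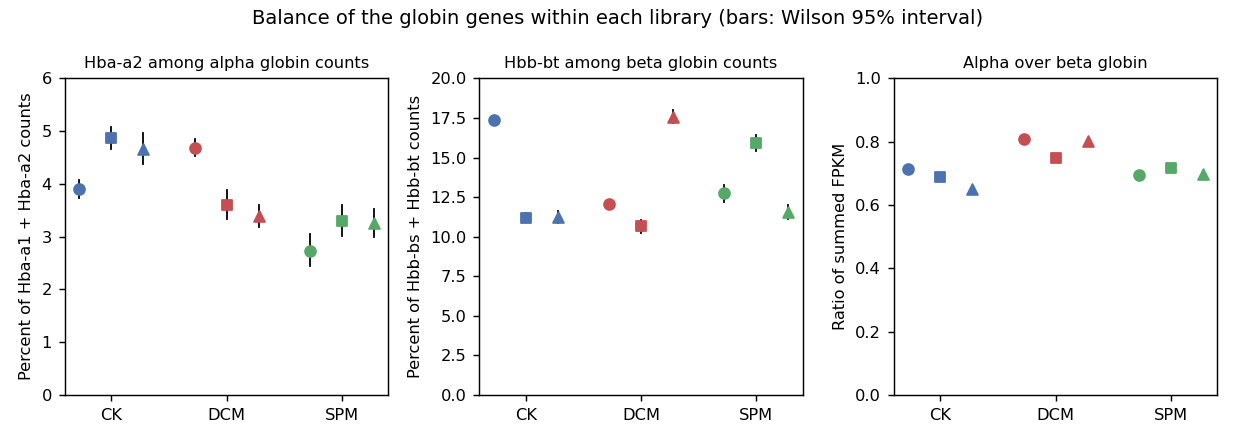
Share of Hba-a2 in alpha counts and of Hbb-bt in beta counts (percent, with Wilson 95% intervals for counting error) and the ratio of alpha to beta globin FPKM, in each library by group. The Hba-a2 share is lowest in SPM (2.73% to 3.30%), the Hbb-bt share overlaps among groups, and the alpha to beta ratio is highest in DCM (0.749 to 0.808).

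The wider erythroid pathway did not follow the globins as a group. Of 48 other genes of red cell development with a row, 30 passed the low-count filter in DCM compared to CK (14 higher, 16 lower), 29 in SPM compared to DCM (13 higher, 16 lower) and 31 in SPM compared to CK (14 higher, 17 lower). Their median log2 fold changes were -0.01, -0.12 and -0.02, and 1, 2 and 3 of them were called, where 4.34%, 3.59% and 9.21% of all genes tested were. The calls went in both directions. Tfrc, the transferrin receptor that takes up iron, was at 12.0 ± 4.06 CPM in DCM and 29.8 ± 0.988 in SPM (SD, n = 3) and rose in SPM compared to DCM (log2 fold change 1.32, SE 0.18, adjusted p = 0.00799) and to CK (1.26, SE 0.11, adjusted p = 0.000512). Epor, the erythropoietin receptor, fell from 5.10 ± 0.369 CPM in DCM to 3.27 ± 0.243 in SPM (-0.63, SE 0.16, adjusted p = 0.0273), and the call was lost without SPM replicate 2 (-0.66, adjusted p = 0.1199) and with the GC offset (-0.41, adjusted p = 0.167). Rhd, a blood group protein of the red cell membrane, rose in DCM compared to CK (0.92, SE 0.14, adjusted p = 0.00123) and in SPM compared to CK (0.60, SE 0.11, adjusted p = 0.00623). Blvrb, biliverdin reductase B, fell in SPM compared to CK (-0.62, SE 0.14, adjusted p = 0.0120), a call lost without SPM replicate 2 (-0.56, adjusted p = 0.0564) and, by size, with the GC offset (-0.50). The calls of Tfrc in both comparisons and of Rhd in SPM compared to CK held without SPM replicate 2. That call of Rhd was lost, by size, without CK replicate 2 (0.53) or CK replicate 3 (0.58). It was also lost by limma on log2(FPKM + 0.1) (0.50) and on log2(FPKM + 1) (0.44). Leaving out 1 library gave 2 calls in DCM compared to CK (without CK replicate 3 or DCM replicate 2), 1 call in SPM compared to DCM (without SPM replicate 2 or any DCM library), and in SPM compared to CK 6 without CK replicate 3 (8.97% of all genes called), 5 when SPM replicate 1 was omitted (7.16%), 3 when SPM replicate 2 was (5.18%) and 9 when SPM replicate 3 was (10.6%).

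Genes of the list that other cells also use were abundant and few of them were called. All 8 heme synthesis enzymes with a row exceeded 1 CPM in every library, led by Fech (176 CPM over the 9 libraries), Alas1 (150 CPM) and Urod (66.4 CPM), and none was called. Alas1, which passed the limit on size with the GC offset in SPM compared to CK (0.66), is the housekeeping counterpart of Alas2 and had 125 ± 3.90 CPM in CK, 145 ± 5.28 in DCM and 182 ± 19.5 in SPM (log2 fold change 0.54, adjusted p = 0.00282 in SPM compared to CK, below the limit on size). In the membrane group Sptb (269 CPM), Tmod1 (231 CPM) and Epb41 (182 CPM) led, and all are also components of the muscle cell skeleton. Of the transcription factors Tal1 (11.9 CPM) and Bcl11a (1.78 CPM) exceeded 1 CPM on average, whereas Nfe2 had 0.488 CPM. In the cytosol group Prdx2 (305 CPM), Bnip3l (69.9 CPM) and Ube2o (52.5 CPM) led, and the mitochondrial iron importer Slc25a37 had 21.5 CPM.

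Genes more restricted to red cell precursors were near 0, and the following were singled out after their values were seen. Over all 9 libraries the erythroid master factors Gata1 and Klf1 had 33 and 43 counts, the membrane genes Rhag and Epb42 had 18 and 8, and Trim10 had 72. Of these, Trim10 passed the low-count filter in DCM compared to CK, where it was not called, and none passed in the other comparisons. The embryonic beta gene Hbb-y had 1 count in all, and the minor alpha-like genes Hbq1a and Hbq1b had 37 and 51. Outside the red cell lineage, myoglobin (Mb), the oxygen-binding globin of muscle, had 9414 ± 681 CPM in CK, 9221 ± 488 in DCM and 8020 ± 251 in SPM, with log2 fold changes of -0.03, -0.19 and -0.23. Cygb, cytoglobin, had 98.2 CPM and Ngb, neuroglobin, 0.125 CPM on average.

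The globins were set beside markers of other cells that blood carries, and of macrophages, which also reside in the tissue. The 9 platelet markers (led by Pf4, Itga2b and Gp1ba) summed to 32.4 to 39.97 CPM in the CK libraries, 25.3 to 40.4 in those of DCM and 31.9 to 35.98 in those of SPM, and thus overlapped. Pf4 alone had 19.4 CPM on average, and of the other markers Gp9, looked at after its values were seen, fell from 2.19 ± 0.646 CPM in CK to 0.755 ± 0.208 in SPM (log2 fold change -1.53, adjusted p = 0.0121). Of the 6 platelet markers tested in SPM compared to CK, 2 were higher and 4 lower. Gp9 was the only one called, against 9.21% of all genes tested. Gp1ba went the other way, from 2.73 ± 0.729 CPM in CK to 4.25 ± 0.133 in SPM. The 10 neutrophil markers (led by S100a9, Csf3r and Mmp9) summed to 8.25 to 29.03 CPM in the CK libraries, 16.95 to 33.8 in those of DCM and 36.9 to 70.8 in those of SPM, so they were highest in the group where the globins were lowest. The top of the CK range is CK replicate 2, where Ltf, singled out after its values were seen, had 16.9 CPM against 0.0649 and 0.223 in the other CK libraries. The 7 B cell markers with a row (led by Blk, Cd79a and Cd79b) summed to 32.02, 27.3 and 11.6 CPM in CK replicates 1 to 3, 16.2, 7.80 and 11.7 in DCM, and 7.98, 12.2 and 13.1 in SPM. Within each group the library lowest in B cell markers was also lowest in Hba-a1, and the library highest in them highest. In SPM this order rests on replicates 1 and 3, as replicate 2 was matched by a mixture of them. The 8 T cell markers (led by Lck, Cd8a and Cd3g) summed to 6.75 to 11.2 CPM in the CK libraries, 2.78 to 5.45 in those of DCM and 4.68 to 5.04 in those of SPM, and the 8 macrophage markers (led by Lyz2, Csf1r and C1qa) to 731 to 962, 613 to 725 and 728 to 1224. The T cell sums also had the same lowest and highest library as Hba-a1 within each group. The platelet sums did so in DCM and SPM. In CK they shared the lowest library with Hba-a1, but replicate 2 (39.97 CPM) was above replicate 1 (38.4 CPM). The neutrophil and macrophage sums did not do so in all of the groups, and in SPM both ran in the reverse order of Hba-a1. No marker with a row on these lists was at 0 in all 9 libraries. The part of blood content in the globin results was not tested.

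Markers of tissues that could enter the dissection also moved. The 8 liver plasma protein markers (led by Alb, Ahsg and Apoa1) summed to 359, 180 and 31.0 CPM in SPM replicates 1 to 3, which is the reverse of the order of Hba-a1 in these libraries, against 14.8 to 50.8 in CK and 27.8 to 32.2 in DCM. As SPM replicate 2 was matched by a mixture of SPM replicates 1 and 3, that order rests on replicates 1 and 3. The 5 atrial markers (led by Nppa, Myl4 and Myl7) summed to 1080 to 1501 CPM in the CK libraries, 581 to 1091 in those of DCM and 1065 to 1730 in those of SPM. The part of either in the globin results was not tested.

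**Figure D5:**
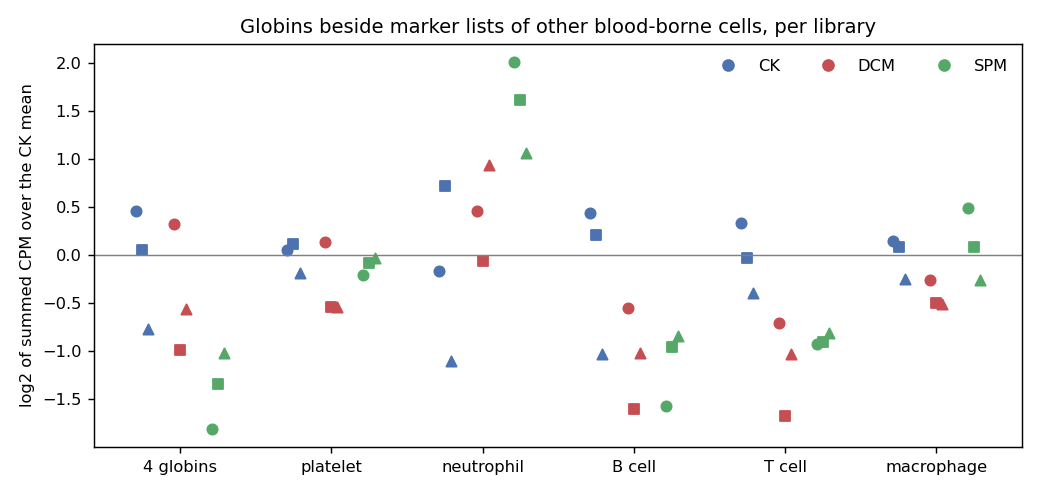
Log2 of the summed CPM of the globins and of the marker lists of platelets, neutrophils, B cells, T cells and macrophages in each library, relative to the mean of CK and coloured by group. The macrophage list is not limited to cells of the blood. The globins are lowest in SPM, the platelet sums overlap between groups, and the neutrophil sums are highest in SPM (36.9 to 70.8 CPM).

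Genes with the pattern of the globins were sought among the 12606 genes with a mean of at least 1 CPM, by the correlation over the 9 libraries of log2(CPM + 0.5) with the mean of the 4 globins. The libraries fall into 3 groups and share their depth, and the values are a description. The 5 genes nearest in pattern were Ino80e (Pearson r = 0.976, Spearman rho = 0.983), Gltp (0.970 and 0.967), Syt17 (0.967 and 0.967), Bpgm (0.957 and 0.95) and Rarg (0.952 and 0.983), and no other gene exceeded an r of 0.95. Bpgm makes the red cell metabolite that lowers the oxygen affinity of haemoglobin, and it was the only one of these genes on the erythroid list. It was at 54.3, 40.4 and 32.3 CPM in CK, 45.7, 27.7 and 36.2 in DCM, and 26.2, 27.1 and 32.6 in SPM. The span of Bpgm was smaller than that of the globins, and it was not called in SPM compared to CK (log2 fold change -0.56, SE 0.17, adjusted p = 0.0395, below the limit on size). Slc4a1 had an r of 0.898 and ranked 39. Without SPM replicate 2, r was 0.974 for Ino80e, 0.967 for Gltp, 0.964 for Syt17, 0.953 for Bpgm and 0.949 for Rarg, and 4 of these 5 genes were still among the 5 nearest.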

How the data were processed

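Heart RNA was sequenced in 9 libraries, 3 each of CK, DCM and SPM, grouped by their titles. The authors deposited raw counts per gene, and separately FPKM values, which equal the deposited count divided by a length per gene and by the library total (largest relative deviation 8.6e-13). That length was the longest GENCODE M21 transcript for 97.6% of genes and for all 5 genes described. Reads were filtered with fastp by the study, and the submitters' processing notes name Bowtie 0.12.2 without its role. The sources used here do not give the counting tool, annotation, use of strand or read length, so windows of 50 bases stand for reads.

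Groups were compared in pairs of 3 libraries by edgeR 4.0.16 in R 4.3.3 (filterByExpr, TMM, quasi-likelihood test), with Benjamini-Hochberg adjustment over all genes tested. Called genes had an adjusted p under 0.05 together with at least a 1.5-fold difference. Levels are CPM scaled by TMM over the 9 libraries. FPKM was used to compare genes with each other. Wilson 95% intervals are given with shares and reflect counting error alone. The total counts of 29901300 to 39718680 per library set that precision. Libraries were not shown to pair by replicate number. Steps were tested on simulated data. Alternatives were other limits on size, DESeq2 1.42.0, RLE and upper-quartile factors, mitochondrial genes left out, other low-count filters, a joint fit of all 9 libraries, a block for replicate number, an offset for the trend on GC content (lowess span 0.3), both together, limma 3.58.1 on log2 of FPKM plus 0.1 or 1, and each library left out.

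The genes and lists were chosen with earlier results of these data known. Of the 134 genes on all lists, 11 have no row in the count table and were not analysed here, Alas2 among them. The named genes are the members, the pathway genes called in any comparison, up to 3 of the most abundant of each list group, and the 5 genes nearest the globins in pattern. Rhag, Epb42, Trim10, Gata1, Klf1, Gp9 and Ltf were added after their values were seen. No protein sequences were used here, and no promoter of Slc4a1. Some genes that the rule takes are left out. Figures used Python 3.11.15 and matplotlib 3.10.9.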

Additional observations from a re-analysis of the deposited data

How the results depend on the processing

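The direction of the 5 genes in SPM compared to DCM and in SPM compared to CK held under every alternative run, while the calls of the former did not. Of 5 genes, 4 were called in SPM compared to DCM as reported, and 0 with DESeq2, 2 with all 9 libraries in one fit, 0 with the GC offset, 0 with the replicate block and GC offset together, 0 with limma on log2(FPKM + 0.1) and 0 on log2(FPKM + 1), and 0 to 4 with 1 library left out. In SPM compared to CK, 5 were called as reported, 3 with the replicate block and GC offset together, and 3 to 5 with 1 library left out. In DCM compared to CK, 0 were called as reported (3545 genes had an unadjusted p below 0.05), 0 with DESeq2, and 0 to 2 with 1 library left out. There the log2 fold change with 1 library left out ran from -0.65 to 0.14 for Hba-a1 (above 0 without CK replicate 1 or DCM replicate 2), from -0.99 to 0.0142 for Hba-a2 (above 0 without DCM replicate 2) and from -0.80 to 0.14 for Hbb-bt (above 0 without CK replicate 1). The cause of these changes was not tested.

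Same-numbered libraries of different groups had residual correlations of -0.0794 to 0.200 and others of -0.281 to 0.214, so the numbers were not taken to pair the libraries. With the replicate block, 0, 4 and 4 of the 5 genes were called in DCM compared to CK, SPM compared to DCM and SPM compared to CK, Hbb-bt being lost in the last (adjusted p = 0.0598).

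Of the erythroid pathway list, DCM compared to CK gave 1 call as reported, 2 at a fold of 1.3 (7.64% of all genes called), 2 with no fold limit (10.4%), 2 without a low-count filter (3.88%) and 1 to 2 with 1 library left out. SPM compared to DCM gave 2, and 5 (8.96%), 9 (16.6%) and 4 (3.32%) under the same settings, 1 with the GC offset (0.869%), 1 with the block and GC offset together, 1 with limma on log2(FPKM + 1) and 1 to 3 with 1 library left out. SPM compared to CK gave 3, and 10 (17.4%), 16 (27.4%) and 5 (6.41%) under the same settings, and 2 to 9 with 1 library left out. With FPKM in place of CPM, 3 of the 5 genes nearest the globins in pattern were again among the 5 nearest.

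Slc4a1 could not be fitted in either SPM comparison at a minimum of 1 CPM in 3 libraries. Its 17 to 80 counts per library limit what can be shown for it, and 3 libraries per group limit all 5 genes.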
